A study of Mus musculus with 9 samples.

Results

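The CXC and CX3C chemokines described here are 9 genes, Cxcl1, Cxcl2, Cxcl3, Cxcl9, Cxcl10, Cxcl11, Cxcl14, Cxcl16 and Cx3cl1, taken by symbol from a table of 24411 genes and read in 9 macrophage lines. The lines were cultures of C57BL/6 mouse macrophages that kept dividing under M-CSF, the growth factor they depend on. YS lines came from yolk sac at E9.5, FL lines from the liver of fetuses at E14.5, and BM lines from the bone marrow of adult mice, with 3 lines per group and 1 poly(A)-selected RNA library per line. All 9 lines received recombinant human M-CSF and fetal calf serum, and the labels name no stimulus and no batch. Cells of several mice were pooled at the start, and each line was a bulk culture kept in its own dish or well. All lines were expanded from colonies that arose over weeks to months of culture, in BM and FL cultures after most adherent cells had stopped dividing and in YS cultures without a general stop. P-values therefore measure the spread between such cultures and not between mice. Values are TPM, in which reads are divided by transcript length and every library has the same total, so levels of different genes can be compared per length. TPM holds no read numbers and the depth is unknown, so a gene at 0 is called listed at 0.

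Chemokines are small secreted or membrane-bound proteins that steer migrating leukocytes through G protein-coupled receptors. The CXC members with an ELR tripeptide before their first cysteines, among them Cxcl1, Cxcl2 and Cxcl3, act on Cxcr2 and draw neutrophils, whereas Cxcl9, Cxcl10 and Cxcl11 are induced by interferons and act on Cxcr3 of T cells and NK cells. Cxcl14 is a homeostatic chemokine found mostly in epithelia, and Cxcl16 and Cx3cl1 are made as membrane proteins with a mucin stalk that bind Cxcr6 and Cx3cr1 and are shed by Adam10 and Adam17. Transcription of many of these genes in macrophages runs through NF-kB and through interferon factors such as Stat2 and the Irf family.

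Sequences before the start sites were available in the RefSeq promoter table of build GRCm38.p6 for 7 of the 9 genes, and Cxcl11 and Cxcl16 had no entry. Windows of 250 bases before each start were searched on both strands for 3 motifs, GGGNNNTTCC for NF-kB, GAAANNGAAA as the core of an interferon-stimulated response element and TTCNNNGAA for a gamma-activated site, which reads the same on both strands. The NF-kB motif was in the windows of Cxcl1, Cxcl2, Cxcl3 and Cxcl10, which is 4 of the 7, against 4.65% of all 32851 windows. The windows of Cxcl1, Cxcl2 and Cxcl3 share a run that holds the motif, so they are not independent counts. The interferon motif was in those of Cxcl10 and Cxcl14 (2.98% of all windows) and the gamma-activated site in that of Cxcl14 (7.02% of all windows). The 120 bases before the starts of the 3 ELR genes are shown first, because these genes lie in 1 stretch of chromosome 5, with Cxcl15 between Cxcl3 and Cxcl1, and share the run GGGAATTTCCC while their transcripts were unequal. They are on the plus strand at chr5:90891125-90891244 (Cxcl1), chr5:90903779-90903898 (Cxcl2) and chr5:90785981-90786100 (Cxcl3), and capitals mark matches to any of the 3 motifs, overlapping matches running together.
Cxcl1: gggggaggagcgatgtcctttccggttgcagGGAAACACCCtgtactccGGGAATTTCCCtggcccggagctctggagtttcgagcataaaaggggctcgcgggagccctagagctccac
Cxcl2: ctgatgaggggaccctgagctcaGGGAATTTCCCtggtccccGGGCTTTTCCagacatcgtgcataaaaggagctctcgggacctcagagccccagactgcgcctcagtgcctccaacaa
Cxcl3: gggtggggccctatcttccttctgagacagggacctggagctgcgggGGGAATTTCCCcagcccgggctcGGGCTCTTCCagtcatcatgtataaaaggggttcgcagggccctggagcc

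The 250 bases before the starts of Cxcl10, Cxcl14 and Cx3cl1 are shown because these 3 genes differed between YS and BM lines, in opposite directions. They are at chr5:92348890-92349139 on the minus strand, chr13:56296552-56296801 on the minus strand and chr8:94771930-94772179 on the plus strand, written 5′ to 3′ along each gene with the same capitals. In the Cxcl10 window the interferon core GAAAGTGAAA and the NF-kB matches GGGAAATTCC and GGGGACTTCC are seen, and the Cx3cl1 window has none of the 3 motifs. A match is a run of letters, and binding was not measured.
Cxcl10: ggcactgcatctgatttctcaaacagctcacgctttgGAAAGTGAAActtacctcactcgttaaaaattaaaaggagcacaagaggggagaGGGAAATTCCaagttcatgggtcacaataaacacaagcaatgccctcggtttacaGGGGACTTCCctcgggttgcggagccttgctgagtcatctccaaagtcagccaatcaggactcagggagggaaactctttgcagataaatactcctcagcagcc
Cxcl14: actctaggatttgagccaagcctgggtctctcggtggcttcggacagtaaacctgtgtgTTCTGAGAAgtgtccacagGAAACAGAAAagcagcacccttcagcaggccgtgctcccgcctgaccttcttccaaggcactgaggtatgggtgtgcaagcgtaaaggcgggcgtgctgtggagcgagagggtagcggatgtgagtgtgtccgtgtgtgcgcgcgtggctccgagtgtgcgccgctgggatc
Cx3cl1: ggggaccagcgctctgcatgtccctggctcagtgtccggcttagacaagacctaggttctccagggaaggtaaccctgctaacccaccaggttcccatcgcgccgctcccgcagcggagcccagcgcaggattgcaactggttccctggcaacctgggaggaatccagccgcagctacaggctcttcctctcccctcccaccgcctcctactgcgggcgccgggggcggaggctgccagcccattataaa

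Each library listed between 13345 and 14322 genes above 0. All 11 macrophage markers reached 1 TPM in each group, and fibroblast, T and NK cell and B cell markers did not reach it in any line. Macrophage markers were not equal between groups. Fcgr1, Aif1 and C1qa were called higher in YS lines (log2 differences 4.65, 3.155 and 2.30) and in FL lines (4.02, 3.15 and 2.92) than in BM lines. Mertk was called higher in FL lines than in both other groups and Lyz2 lower in YS lines than in both. The remaining macrophage markers were not called. The T and NK cell genes Cd3e, Cd3g and Nkg7 were listed at 0 in every line. Other lists were mixed. Of 7 listed neutrophil markers S100a9, Elane and Ngp were at 0 everywhere while S100a8 reached 25.11 TPM, was highest in FL lines and was called in all 3 comparisons, and the list summed to 0.06 to 2.51 TPM in YS, 10.55 to 25.6 in FL and 3.66 to 5 in BM lines. Of 6 endothelial markers Emcn was at 0 while Kdr reached 54.35, Vwf 44.83 and Pecam1 8.17 TPM, and the list summed to 8.07 to 66.98 TPM in YS, 22.1 to 93.95 in FL and 39.3 to 44.91 in BM lines. The fetal liver gene Afp was between 1.03 and 20.45 TPM. Of the dendritic cell markers Flt3 was at 0, while Zbtb46 reached 7.09 TPM and was called higher in YS than in BM lines. The megakaryocyte marker Gp9 reached 3.78 TPM in YS line 1 and was at 0 in all FL and BM lines. The part of these markers in the chemokine values was not tested. BM line 2 stood apart in that its 4 erythroid markers summed to 229.12 TPM. Most of that sum was Hba-a1 (214.99 TPM), a gene whose value was 0 for YS line 2. In addition, 45 genes were under 0.5 TPM in the other BM lines and 20 TPM or higher in YS line 2. BM line 2 had these genes at a median of 14.1% of the YS line 2 level (interquartile range 10.7% to 17.7%). This was the highest such median among the YS and FL lines, each taken with its own genes. The others were 3.24% and 6.72% for YS lines 1 and 3, and 8.03%, 5.77% and 8.38% for FL lines 1 to 3. The source of these transcripts was not tested. YS line 1 was the least like the other lines of its group.

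Differences between groups were tested on log2(TPM + 1), which understates the fold change of low genes. The 11753 genes reaching 1 TPM in 3 or more of the 9 libraries entered 1 limma fit of all 9 libraries, and a gene was called at a Benjamini-Hochberg false discovery rate under 0.1 with a change of more than 2-fold. Of the 9 chemokines, 6 passed this filter. Cxcl1 and Cxcl3 were listed at 0 in every line, and Cxcl9 stayed below 1 TPM everywhere. Between YS and BM lines 4 of the 6 were called (Cxcl10, Cxcl11 and Cx3cl1 higher and Cxcl14 lower in YS lines), against 12.8% of all genes tested (7.57% higher and 5.22% lower in YS lines). Between FL and BM lines 2 were called (Cxcl14 and Cxcl16, both lower in FL lines), against 10.3% of all genes (6.01% higher and 4.3% lower in FL lines). Between YS and FL lines 1 was called (Cxcl16, higher in YS lines), against 3.79% of all genes (1.95% higher and 1.85% lower in YS lines). The median absolute log2 difference of the 6 genes was 2.45, 1.87 and 1.56 in these comparisons, against 0.37, 0.30 and 0.27 over all genes tested. Groups did not overlap in 3 of the 6 between YS and BM lines (49% of all genes), in 3 between FL and BM lines (49.5% of all genes) and in 1 between YS and FL lines (26.1% of all genes), shares that are near the background. The first and second comparisons share the BM lines. With 6 genes these counts describe the members, and the calls that depend on a single line are given with each gene. Cxcl14 passed the filter through the BM lines alone, so its calls against BM lines were favoured on entry.

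**Figure D1:**
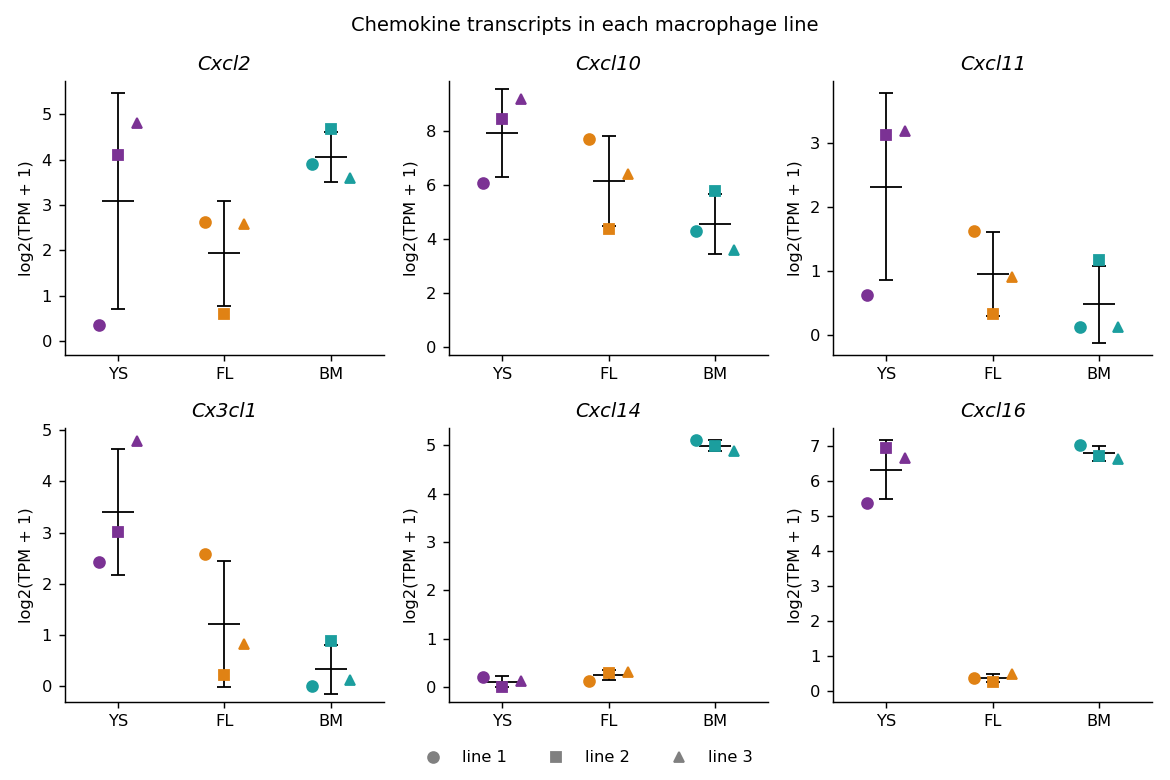
TPM of the 6 tested chemokines in each line, as log2(TPM + 1), with the group mean (horizontal bar) and SD (error bar, n = 3 lines). All BM lines lie above all other lines in Cxcl14 and all FL lines below all other lines in Cxcl16, whereas Cxcl2, Cxcl10, Cxcl11 and Cx3cl1 spread widely among lines of 1 group.

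Among the ELR chemokines, transcripts were found for Cxcl2 and not for Cxcl1 or Cxcl3. Cxcl2 was at 0.28, 16.20 and 26.95 TPM in the YS lines 1 to 3, at 5.20, 0.51 and 4.99 TPM in the FL lines and at 13.91, 24.58 and 11.09 TPM in the BM lines. YS line 1 and FL line 2 were the low lines, the YS range covered that of both other groups, and every FL line was below every BM line. The means were 14.5 ± 13.4, 3.57 ± 2.65 and 16.5 ± 7.12 TPM in YS, FL and BM lines (SD, n = 3 each). The log2 difference of FL and BM lines was -2.12 (SE 1.07, limma adjusted p = 0.206). It was called when YS line 1 was left out (adjusted p = 0.0295) or when only the 6 libraries of FL and BM lines were fitted (adjusted p = 0.0395). The YS and BM lines differed by -0.97 (adjusted p = 0.525), a value that turned to 0.40 without YS line 1 and was not called in either case.

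The interferon-induced ligands Cxcl10 and Cxcl11 were called higher in YS than in BM lines, and neither was called between YS and FL lines. Cxcl10, the most abundant of the 9 transcripts in the YS and FL groups, was at 66.68, 351.19 and 589.07 TPM in the YS lines 1 to 3, at 205.00, 19.71 and 83.40 TPM in the FL lines and at 18.47, 53.52 and 10.91 TPM in the BM lines. All YS lines were above all BM lines, while FL lines overlapped with both groups. The group means were 336 ± 262, 103 ± 94.1 and 27.6 ± 22.7 TPM (SD, n = 3 each). Cxcl10 was higher in YS than in BM lines by 3.37 on the log2 scale (SE 1.02, limma adjusted p = 0.0400). The call was lost without BM line 1 (3.24, adjusted p = 0.115) or BM line 3 (2.89, adjusted p = 0.134), the lines low in Cxcl10, and without BM line 2 the difference was 3.99 (adjusted p = 0.0435). FL lines differed from BM lines by 1.61 (SE 1.02, adjusted p = 0.310) and from YS lines by 1.76 in favour of YS lines (adjusted p = 0.307), and neither difference was called.

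Cxcl11, the neighbour of Cxcl10 on chromosome 5, was at 0.55, 7.70 and 8.10 TPM in the YS lines, at 2.10, 0.26 and 0.87 TPM in the FL lines and at 0.10, 1.26 and 0.10 TPM in the BM lines. YS line 1 lay below BM line 2, so the groups overlapped. The difference of YS and BM lines was 1.83 (SE 0.69, limma adjusted p = 0.0807). This call was lost in 10 of 19 alternatives, among them leaving out YS line 2 (adjusted p = 0.203), YS line 3 (0.191), FL line 3 (0.108), BM line 1 (0.205) or BM line 3 (0.205), and over all 19 the adjusted p ranged from 0.00759 to 0.205. Cxcl9, which lies on the other side of Cxcl10, was at 0.74, 0.26 and 0.55 TPM in the YS lines, at 0.17 and 0.09 TPM in the FL lines 1 and 2, and listed at 0 in FL line 3 and all BM lines. At these levels it did not pass the filter. A fit without the filter gave a YS against BM difference of 0.59 (SE 0.11, limma adjusted p = 0.0139), which is under the 2-fold threshold on a scale where values below 1 TPM are pressed together. The gene Art3 overlaps Cxcl10 and Cxcl11 in RefSeq and was at 1.68 TPM or less, and whether the authors' counting used strand is not stated.

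Of the 9 chemokines, Cxcl14 was the one that reached 1 TPM in BM lines alone, though it was not the most abundant there. It was at 33.18, 30.70 and 28.36 TPM in the BM lines 1 to 3, at 0.16 TPM in YS line 1, listed at 0 in YS line 2 and at 0.10 TPM in YS line 3, and at 0.09, 0.22 and 0.25 TPM in the FL lines. Every BM line exceeded every other line, and BM line 2 was no exception. The log2 difference from BM lines was -4.87 for YS lines (SE 0.17, limma adjusted p = 1.83e-06) and -4.74 for FL lines (SE 0.17, adjusted p = 4.59e-06). YS and FL lines differed by -0.13 (adjusted p = 0.668). Both calls held in all 20 alternatives run for each. Cxcl14 passed the filter only through the BM lines, the group where it was high. A gene that enters this way is likely to be called against BM lines. Its calls and p-values therefore add little to the values themselves. The within-group SD of Cxcl14, 0.108 (log2), was at the 7.54th percentile of the tested genes, below the spread of most genes. This low spread is in part set by the floor. In YS and FL lines the gene was at 0.25 TPM or less, where log2(TPM + 1) presses differences together. Within BM lines alone the SD was 0.110. The genes closest to Cxcl14 over the 9 lines were 2610035D17Rik (Pearson's r = 0.999), Eda2r (0.998) and Kirrel3 (0.996). Kirrel3 was at 60.92, 50.66 and 65.19 TPM in the BM lines and at 0.33 TPM or less elsewhere. All of these genes were near 0 outside BM lines, so r is set mostly by the step between groups. Any gene limited to BM lines would score high.

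Of the membrane-bound chemokines, Cxcl16 was nearly missing from FL lines. It was at 0.31, 0.21 and 0.41 TPM in the FL lines 1 to 3, against 40.22, 122.13 and 100.82 TPM in the YS lines and 130.10, 105.19 and 98.03 TPM in the BM lines. Each FL line was below each YS and BM line, and the YS and BM ranges overlapped. The log2 difference of FL and BM lines was -6.41 (SE 0.36, limma adjusted p = 5.08e-05), and that of YS and FL lines was 5.94 (SE 0.36, adjusted p = 0.000149). These calls held in all 20 alternatives run for each. YS and BM lines differed by -0.47 (SE 0.36, adjusted p = 0.347), which became 0.01 when YS line 1 was left out.

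The neighbours of Cxcl16 on chromosome 11 were read in the same lines. Zmynd15, which overlaps Cxcl16 in RefSeq, was also the gene with the most similar profile (r = 0.983 over 9 lines), at 2.23, 5.08 and 6.14 TPM in the YS lines, 0.20, 0.06 and 0.08 TPM in the FL lines and 8.03, 5.96 and 4.65 TPM in the BM lines. It was lower in FL than in BM lines by 2.67 (log2 difference -2.67, limma adjusted p = 0.0013). Reads of the overlapping part may count for either gene if strand was not used, which was not tested. Med11, whose annotated end is 656 bases from Cxcl16, encodes a Mediator subunit and was between 53.17 and 88.68 TPM in every line. Its log2 difference of FL and BM lines was 0.02 (SE 0.18, limma adjusted p = 0.942), so the low level in FL lines was not seen at this neighbour. Arrb2, farther out on the same side, was called higher in FL than in BM lines (1.225, adjusted p = 0.00692). On the other side Tm4sf5 was not called (0.07, adjusted p = 0.893).

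**Figure D2:**
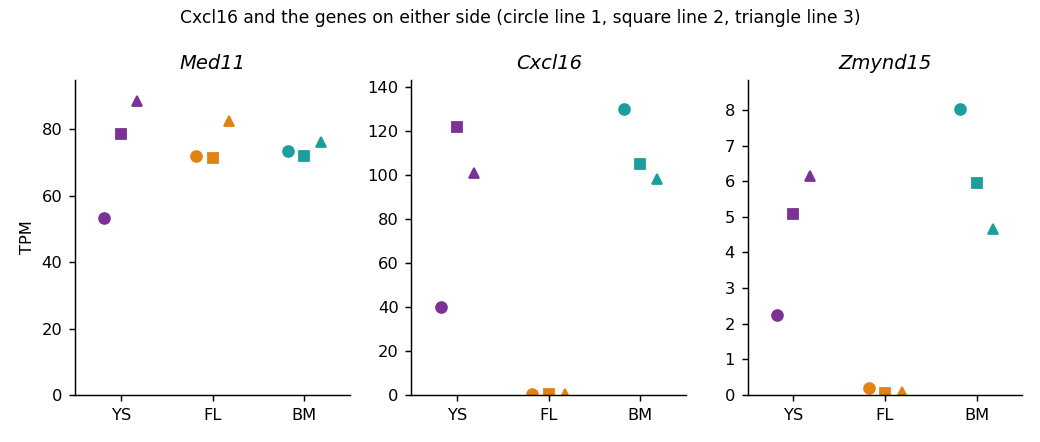
TPM of Med11, Cxcl16 and Zmynd15 in each line, on linear axes that start at 0 and differ between panels; each point is 1 line. In FL lines Cxcl16 was at 0.41 TPM or less and Zmynd15 at 0.20 TPM or less, while Med11 stood between 71.44 and 82.46 TPM.

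Cx3cl1, or fractalkine, was at 4.36, 7.01 and 26.69 TPM in the YS lines, at 5.02, 0.17 and 0.77 TPM in the FL lines, and listed at 0, at 0.84 and at 0.09 TPM in the BM lines. All YS lines were above all BM lines, and FL line 1 fell within the YS range. The log2 difference of YS and BM lines was 3.07 (SE 0.73, limma adjusted p = 0.0171), and it was called in all 20 alternatives, with a largest adjusted p of 0.0660. Between YS and FL lines it was 2.19 (SE 0.73, adjusted p = 0.109), which was called without FL line 1 (adjusted p = 0.0569), without YS line 1 (0.0902) or with quantile normalization (0.0953). Between FL and BM lines it was 0.88 (adjusted p = 0.444).

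**Figure D3:**
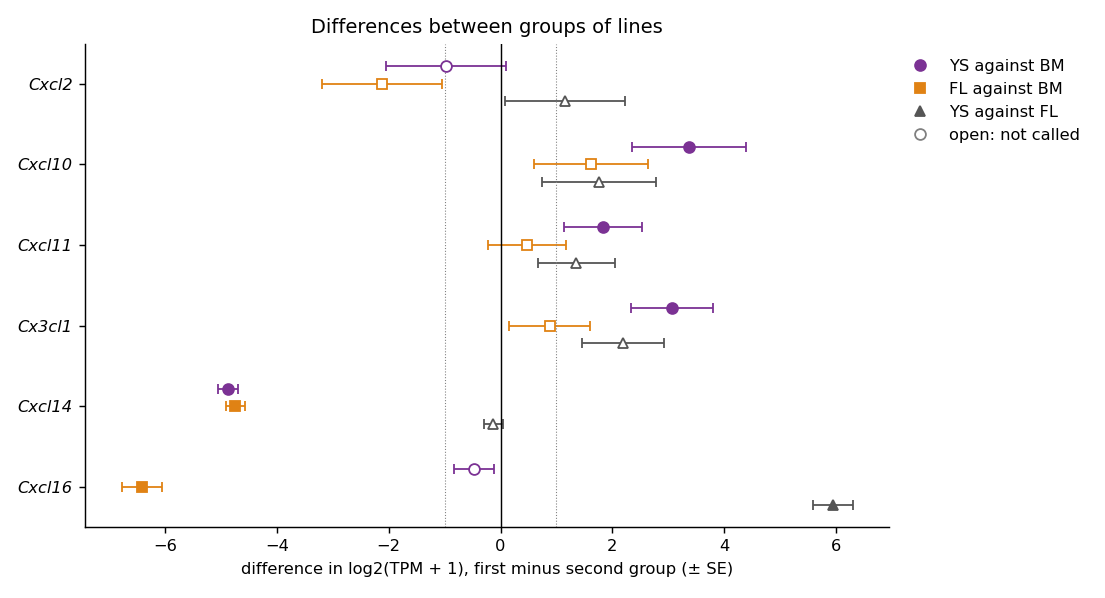
Log2 difference between groups for each tested chemokine (point, first minus second group) with its standard error (bar), in units of log2(TPM + 1). Filled points passed both thresholds, dotted lines mark a 2-fold change, and the points farthest from 0 are those of Cxcl16 against FL lines and Cxcl14 against BM lines.

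Cxcl10 made up most of the 9 transcripts in YS and FL lines, and Cxcl16 and Cxcl14 together did in BM lines. Summed over the 9 genes, TPM was 113, 504.5 and 752.3 in YS lines, 217.9, 21.17 and 90.69 in FL lines and 195.8, 216.1 and 148.6 in BM lines. Cxcl10 took 92.0% to 94.1% of the sum in FL lines, although the sum itself ranged from 21.17 to 217.9 TPM there, and 59.0% to 78.3% in YS lines. In BM lines it took 7.34% to 24.8%, and Cxcl16 took 48.7% to 66.5% and Cxcl14 14.2% to 19.1%. Cxcl16 took 13.4% to 35.6% of the sum in YS lines and under 1% in each FL line.

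**Figure D4:**
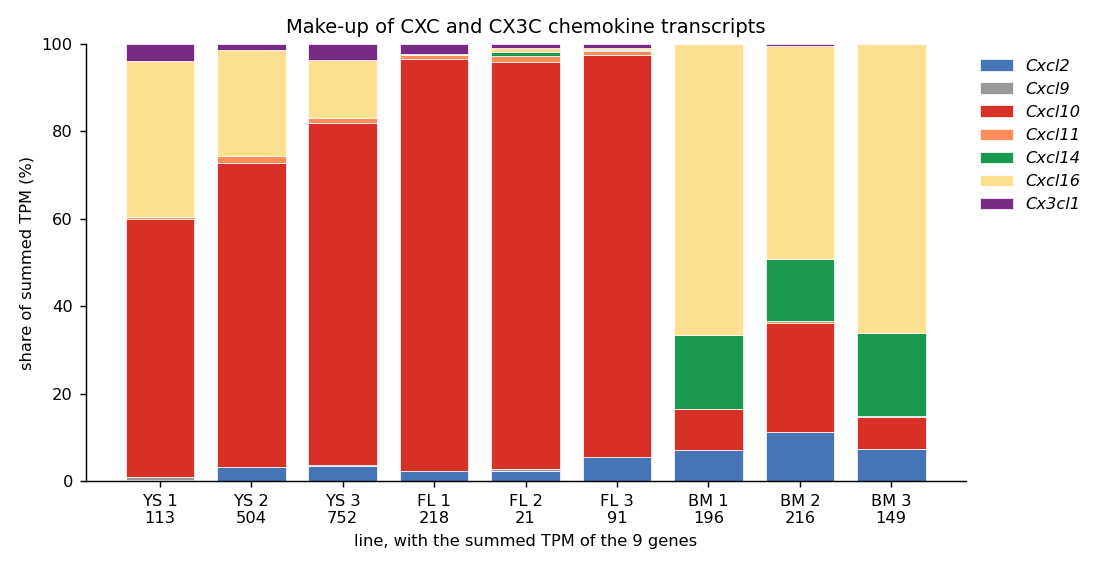
Share of each gene in the summed TPM of the 9 chemokines (stacked bars, percent), with the sum below each line. Cxcl10 fills most of the YS and FL bars, and Cxcl16 and Cxcl14 fill most of the BM bars.

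Lines of 1 group differed from each other more in 5 of the 6 tested chemokines than in the median gene. Cxcl14 was the exception, with YS and FL values near the floor. The within-group SD of log2(TPM + 1) was 1.57 for Cxcl2, 1.495 for Cxcl10, 1.04 for Cx3cl1, 0.98 for Cxcl11, 0.51 for Cxcl16 and 0.11 for Cxcl14, against a median of 0.23 over the tested genes. The first 4 were above the 95th percentile. The order of lines was shared among genes: YS line 1 was the lowest YS line and FL line 2 the lowest FL line in the same 5 genes (Cxcl2, Cxcl10, Cxcl11, Cxcl16 and Cx3cl1). For Cxcl16 the FL order rests on 0.31, 0.21 and 0.41 TPM, values near the floor that cannot be ranked with confidence without depth. FL line 1 and BM line 2 were the highest of their groups in Cxcl2, Cxcl10, Cxcl11 and Cx3cl1, as was YS line 3 in YS lines. Over the 9 lines Cxcl10 correlated with Cxcl11 (r = 0.940) and Cx3cl1 (r = 0.926), and Cxcl2 with Cxcl10 at r = 0.312; these values describe 9 lines that share groups and cultures. The excess of BM line 2 over the mean of the other BM lines was 11.1% of the YS line 2 level for Cxcl10, 15.1% for Cxcl11 and 11.3% for Cx3cl1, near the 14.1% of the 45 genes above, but 74.6% for Cxcl2, and Cxcl16 was lower in BM line 2 than that mean (-7.27%). The part of this in the higher values of BM line 2 was not tested. These percentages were taken against YS line 2 only, the line with the highest median above.

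The receptors of these ligands were few. Of 10 listed receptors 3 passed the filter, and Cxcr1, Cxcr2, Cxcr5, Cxcr6 and Ackr2 did not exceed 1.37 TPM, with Ackr1 and Ackr3 listed at 0 in all lines. Cxcr3, the receptor of Cxcl9, Cxcl10 and Cxcl11, was at 13.86, 30.00 and 23.20 TPM in the BM lines, at 2.90, 6.88 and 6.17 TPM in the FL lines, and listed at 0, at 5.85 and at 2.47 TPM in the YS lines. It was lower than in BM lines by 2.96 in YS lines (log2 difference -2.96, limma adjusted p = 0.0126) and by 1.89 in FL lines (-1.89, adjusted p = 0.0730), and the second call was lost without BM line 2. BM lines, lowest on average in Cxcl10, were highest in its receptor. Cxcr4, the receptor of Cxcl12, was at 192.41, 146.75 and 183.07 TPM in the BM lines, at 35.71, 25.39 and 10.19 TPM in the YS lines and at 24.38, 10.44 and 44.75 TPM in the FL lines, with a log2 difference from BM lines of -2.97 (adjusted p = 0.00663) and -2.88 (adjusted p = 0.00759). Its ligand Cxcl12 was at 0.24 TPM or less. Cx3cr1, the receptor of Cx3cl1, was at 491.71, 162.15 and 39.71 TPM in the YS lines, 86.84, 135.13 and 48.77 TPM in the FL lines and 34.02, 76.81 and 20.39 TPM in the BM lines. Its groups overlapped, and the YS against BM difference of 1.94 was not called (SE 0.85, adjusted p = 0.122). YS line 1, with the least Cx3cl1 of the YS lines, had the most Cx3cr1.

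The interferon genes around Cxcl10 were listed as 17 receptors, kinases and factors, 16 of which were tested. Between YS and BM lines limma called 6 higher in YS lines and 0 lower (10 and 1 at an unadjusted p under 0.05), against 7.57% of all genes called higher and 5.22% lower, and the median difference was 0.81 against 0.11 for all genes. Among them were Irf7, Irf8, Stat2, the kinase Tyk2 and the inhibitor Socs1. With quantile normalization 4 were called, and without BM line 2 7 were. Stat2, a subunit of the factor that acts downstream of type I interferon, was at 77.25, 128.20 and 223.57 TPM in the YS lines, 126.72, 61.25 and 104.69 TPM in the FL lines and 43.47, 57.94 and 28.00 TPM in the BM lines (YS against BM 1.63, limma adjusted p = 0.0237). All YS lines were above all BM lines. Irf7 differed by 2.12 (adjusted p = 0.0424) and Irf8 by 1.54 (adjusted p = 0.00482) in the same comparison. Between FL and BM lines 2 of 16 were called, both higher in FL lines, against 6.01% of all genes higher and 4.3% lower. They were Irf8 (1.11, limma adjusted p = 0.0177) and Stat2 (1.16, adjusted p = 0.0929). With quantile normalization Irf8 was called higher and Jak2 lower. Between YS and FL lines 0 of 16 were called by limma (1 at an unadjusted p under 0.05), against 3.79% of all genes. Ifnb1, which encodes interferon beta, was at 0.60, 1.90 and 4.95 TPM in the YS lines, 3.20, 0 and 1.91 TPM in the FL lines and 0.21, 0.20 and 0 TPM in the BM lines. It was not called between YS and BM lines (1.42, SE 0.60, adjusted p = 0.109).

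The genes with the profile closest to Cxcl10 were Uba7, the activating enzyme of ISG15 conjugation (r = 0.987), Ly6e (r = 0.985) and Nmi (r = 0.979), each known to be interferon-induced. Ly6e was at 803.63, 2010.97 and 3081.24 TPM in the YS lines, 1453.87, 554.15 and 847.88 TPM in the FL lines and 450.08, 647.65 and 264.80 TPM in the BM lines. FL line 2 and YS line 1 were again the low lines of their groups. Over the same 9 lines the 16 interferon genes had a median r with Cxcl10 of 0.713, with 13 above 0, and the 23 NF-kB genes a median of 0.13, also with 13 above 0. With Cxcl2 the medians were 0.0195 (8 above 0) and 0.388 (17 above 0). Genes that differ between groups in the same direction correlate over these lines, so the medians in part restate group differences. No median over all tested genes was set beside them, and an input to either chemokine was not tested.

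**Figure D5:**
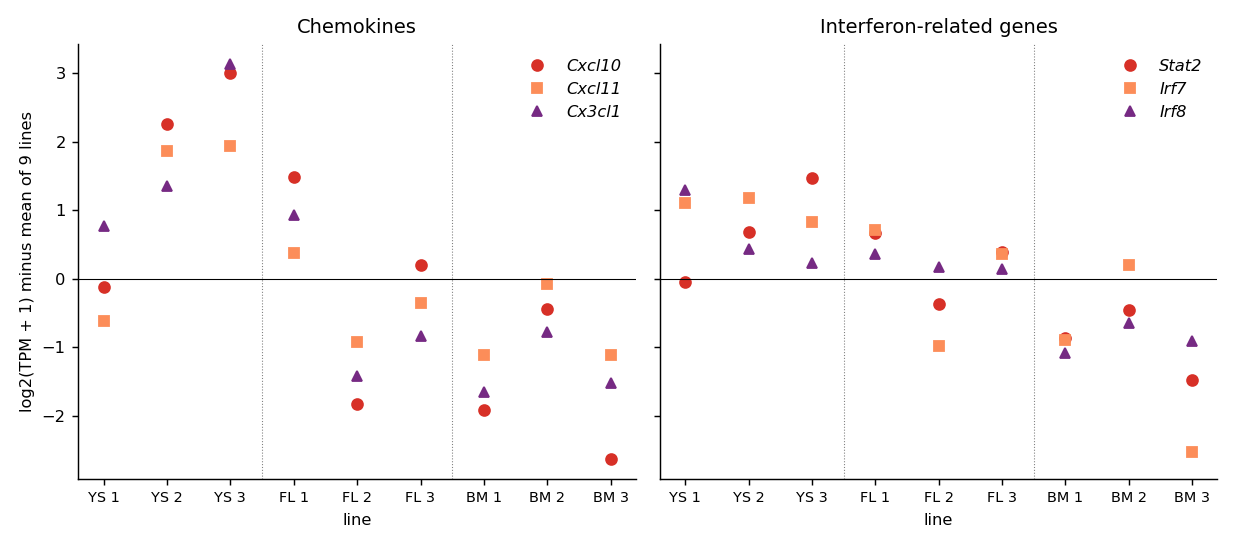
Log2(TPM + 1) minus the mean of the 9 lines for Cxcl10, Cxcl11 and Cx3cl1 (left) and for Stat2, Irf7 and Irf8 (right), 1 point per gene and line. YS lines 2 and 3 and FL line 1 lie above 0 and BM lines 1 and 3 below it for all 6 genes, while YS line 1 is above 0 for Cx3cl1, Irf7 and Irf8 and below it for Cxcl10, Cxcl11 and Stat2.

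The NF-kB genes were listed as 24 receptors, adaptors, subunits and inhibitors. Of 23 tested, limma called 0 higher and 3 lower in YS than in BM lines (5 and 8 at an unadjusted p under 0.05), against 12.8% of all genes tested called either way, which is about the share of 3 in 23, and with a median difference of -0.15 that became 0.07 without YS line 1. In FL lines 1 was called higher and 3 were called lower than in BM lines, against 6.01% and 4.3% of all genes tested. Tnfaip3, the deubiquitinase that limits NF-kB, was at 7.70, 16.96 and 8.63 TPM in the YS lines and 28.50, 26.13 and 36.19 TPM in the BM lines (-1.44, limma adjusted p = 0.0220), and Ikbkg, the regulatory subunit of the IkB kinase, was lower in YS than in BM lines (-1.34, adjusted p = 0.0140) and than in FL lines (-1.21, adjusted p = 0.0575). The last call was lost without YS line 1. Tlr2, a receptor of bacterial lipopeptides, was lower in FL than in BM lines (-1.36, adjusted p = 0.0331), and Il1b was higher in FL lines (1.66, adjusted p = 0.0119) at 3.42, 1.03 and 3.31 TPM against 0.22 TPM or less. The mRNA decay list had 1 of 6 genes called in each comparison with BM lines. Over all genes the share called was 12.8% for YS and 10.3% for FL lines. The called gene was Zfp36l1, which encodes a protein that binds AU-rich elements. It was at 129.33, 83.55 and 112.01 TPM in the YS lines, 75.99, 37.90 and 7.53 TPM in the FL lines and 0, 13.86 and 0.05 TPM in the BM lines (5.43 between YS and BM lines, adjusted p = 0.00960, and 3.56 between FL and BM lines, adjusted p = 0.0525). BM line 2 was above FL line 3, and without it the differences were 6.71 (adjusted p = 0.00239) and 4.84 (adjusted p = 0.00758).

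Other ligands and processing enzymes complete the list. Of 8 further CXC and C chemokines 1 passed the filter, Pf4, the platelet factor that lies near Cxcl3 on chromosome 5 and that macrophages also make. It was at 226.33, 2121.79 and 544.38 TPM in the YS lines, 1728.81, 1303.20 and 615.14 TPM in the FL lines and 69.80, 392.57 and 38.46 TPM in the BM lines, where BM line 2 overlapped with YS lines. Pf4 was called higher in FL (3.43, limma adjusted p = 0.0409) and in YS lines (2.63, adjusted p = 0.0768) than in BM lines. Of 9 proteases and regulators that shed or cut chemokines 5 were tested. In each comparison with BM lines 1 was called, against 12.8% of all genes for YS and 10.3% for FL lines. This was Mmp12, macrophage elastase, at 149.67, 65.98 and 43.89 TPM in the YS lines, 325.63, 25.71 and 99.18 TPM in the FL lines and 5.12, 5.71 and 4.28 TPM in the BM lines (3.68, adjusted p = 0.0126, and 3.99, adjusted p = 0.0102). The sheddases differed by less than 2-fold: Adam10 was between 153.52 and 255.65 TPM and Adam17 between 110.64 and 165.80 TPM in every line. In Adam17 every BM line was above every YS and FL line. Its log2 difference from BM lines was -0.33 for YS (limma adjusted p = 0.0290) and -0.46 for FL lines (adjusted p = 0.00975).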

How the data were processed

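One table of TPM for 24411 gene symbols in 9 libraries was used. The authors deposited TPM, and the submitters' processing notes name Trim Galore 0.6.6, STAR 2.7.9a and RSEM 1.3.3; the genome build and annotation of the table are not given in the sources used here. The study's own differential test was a count model run in iDEP, which TPM does not allow, so limma 3.58.1 in R 4.3.3 was used on log2(TPM + 1), with genes reaching 1 TPM in 3 or more libraries, an intensity trend and Benjamini-Hochberg adjustment, with the study's thresholds (false discovery rate below 0.1, change over 2-fold). The test was checked on simulated data. All adjusted p-values are from limma. With 3 lines against 3 lines, the spread between lines is the only measure of precision, since TPM gives no depth. Lines were grouped and numbered by the sample titles. The members and gene lists were chosen with earlier results of these data known. Named genes are the 9 chemokines, every listed receptor and at most 4 called genes per other list by largest difference. To these come the 3 genes with the highest Pearson's r to a tested chemokine. Other genes were named after their values were seen, for their place in a list or next to a chemokine. These were Tyk2, Socs1, Jak2, Ifnb1, Med11, Arrb2, Tm4sf5, Cxcl15, Art3, Adam10, Adam17, Cxcl12 and single cell type markers. Alternatives changed the pseudocount, filter, scaling, variance trend, libraries, thresholds and replicate block. Gene order came from RefSeq GRCm38.p6. One gene of the interferon list is counted with its list but not reported here by name. The study's other assays were not analysed here.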

Additional observations from a re-analysis of the deposited data

How the results depend on the processing

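Over 357 alternatives for single chemokine differences, 336 kept direction and call, 12 lost a call, 7 gained one and 2 reversed. Many that kept both were differences not called in the main fit, where no call could be lost. Alternatives that changed only a threshold reused the main fit. The lost calls were those of Cxcl11 (10) and Cxcl10 (2) between YS and BM lines. Both reversals came without YS replicate 1, and neither was called. They were Cxcl2 between YS and BM lines (0.3976, with a range of -1.8267 to 0.3976 over the leave-outs) and Cxcl16 in the same comparison (0.0087, range -0.7807 to 0.0087). The number of chemokines called, 4 between YS and BM lines, ranged from 2 to 4 when lines were left out in turn, and was 2 (Cxcl14 and Cx3cl1) without BM replicate 1 or BM replicate 3. Between FL and BM lines it was 2, and 2 to 3 in the leave-outs. Between YS and FL lines it was 1, ranging from 1 to 4: Cxcl2, Cxcl11 and Cx3cl1 joined Cxcl16 without YS replicate 1, and Cx3cl1 joined it without FL replicate 1 and with quantile normalization (2 called). The cause was not tested.

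The labels number lines 1 to 3 in every group without stating pairs. The deviations of same-numbered lines from their group means correlated between -0.118 and 0.088, so no strong shared effect was seen. Whether same-numbered lines were handled together is not stated, and with 3 lines per group these correlations cannot tell. With the replicate number as a block, 3 chemokines were called between YS and BM lines (Cxcl11 was not, adjusted p = 0.110), 2 for FL against BM and 1 for YS against FL; it moved the count of all genes called from 1504 to 1503, 1211 to 1191 and 446 to 409, and in 2 of 9 comparisons of lines the highest correlation was with the line of the same number.

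Scaling shifted all genes: the median log2 difference was 0.108 between YS and BM lines in TPM and -0.0103 after quantile normalization, and the genes called split into 890 higher and 614 lower in TPM but 724 and 763 after it. Between FL and BM lines the split was 706 and 505 against 592 and 593. All chemokine calls between these groups kept direction. All genes called numbered 4455, 3247 and 1500 with no fold threshold. Between YS and FL lines they fell from 446 to 280 with log2(TPM + 4), to 81 with only these groups fitted, to 234 at a false discovery rate under 0.05, and to 191 to 292 without FL replicate 2, FL replicate 3, BM replicate 1 or BM replicate 3. Depth cannot be judged from TPM, so low values such as those of Cxcl9 and Cxcl11 have no counting interval.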
